A study of Mus musculus with 12 samples.

Results

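The transcripts of 10 antioxidant enzymes were examined by RNA-seq in EDL (extensor digitorum longus), a limb muscle made mostly of fast fibers. The members were the rows of the expression table named Sod1, Sod2, Cat, Gpx1, Gpx4, Prdx3, Prdx5, Txn2, Txnrd2 and Gsr, 10 of the 17752 genes in the table, and each name matched a single row. All 10 passed the filter on low values (mean FPKM of 0.5 or more across the 12 libraries), which left 12744 genes for testing. FPKM counts sequenced fragments relative to transcript length and library depth and is used here as the level of a transcript.

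The libraries came from male mice in 4 groups of 3: WT sedentary, WT trained, strNrip1-/- sedentary and strNrip1-/- trained. In strNrip1-/- mice a floxed Nrip1 allele, made on C57BL/6J, was removed by Cre recombinase under the muscle creatine kinase promoter, which is active in both skeletal muscle and heart and came from mice on C57BL/6JN. WT mice were littermates without Cre that carried the same floxed allele. Mice of all 4 groups were 8 weeks of age at the start. Trained mice had a running wheel in the cage for the next 8 weeks, and sedentary mice did not. By the methods of the study, the wheels were taken out ahead of testing endpoints. Nrip1 encodes RIP140, a corepressor of nuclear receptors.

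Antioxidant enzymes act as relays. Superoxide dismutases turn superoxide, a by-product of respiration, into hydrogen peroxide, and catalase, the glutathione peroxidases and the peroxiredoxins then remove the peroxide. The glutathione arm is recharged by glutathione reductase and the peroxiredoxin arm by thioredoxin and thioredoxin reductase, and both draw their electrons from NADPH. Muscle fibers rich in mitochondria are known to hold more of several of these enzymes than glycolytic fibers. Bulk muscle RNA mixes all cells of the tissue, so fewer cells of a type and less RNA per cell cannot be told apart.

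All members are protein-coding genes, and their spans are given here on GRCm38 from the GENCODE annotation. The dismutases are Sod1 (ENSMUSG00000022982) at chr16:90220754-90226329 on the plus strand and Sod2 (ENSMUSG00000006818) at chr17:13006846-13040063 on the plus strand. The peroxide-removing enzymes are Cat (ENSMUSG00000027187) at chr2:103453849-103485160 on the minus strand, Gpx1 (ENSMUSG00000063856) at chr9:108338903-108340343 on the plus strand, Gpx4 (ENSMUSG00000075706) at chr10:80047166-80056439 on the plus strand, Prdx3 (ENSMUSG00000024997) at chr19:60864051-60874556 on the minus strand and Prdx5 (ENSMUSG00000024953) at chr19:6906697-6910106 on the minus strand. The recharging arm holds Txn2 (ENSMUSG00000005354) at chr15:77915047-77929006 on the minus strand, Txnrd2 (ENSMUSG00000075704) at chr16:18426384-18479073 on the plus strand and Gsr (ENSMUSG00000031584) at chr8:33652523-33698163 on the plus strand.

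Cat (catalase, the peroxisomal enzyme that splits hydrogen peroxide) and Sod2 (the manganese superoxide dismutase of the mitochondrial matrix) were the members in which the genotypes did not overlap. The stretches just before their start sites are shown because these members carry the main difference. Both are 250 bases from RefSeq on GRCm38.p6, written 5′ to 3′ along the gene's own strand. Capitals mark CCAAT boxes (CCAAT, or ATTGG when it lies on the other strand) and GC boxes (GGGCGG on either strand), elements chosen after the sequences were seen. The Cat stretch is chr2:103485154-103485403 on the minus strand and the Sod2 stretch is chr17:13007589-13007838 on the plus strand. The RefSeq starts used here differ from the GENCODE spans given above. The Sod2 stretch therefore lies inside its span, and the Cat stretch overlaps the edge of its span.
Cat: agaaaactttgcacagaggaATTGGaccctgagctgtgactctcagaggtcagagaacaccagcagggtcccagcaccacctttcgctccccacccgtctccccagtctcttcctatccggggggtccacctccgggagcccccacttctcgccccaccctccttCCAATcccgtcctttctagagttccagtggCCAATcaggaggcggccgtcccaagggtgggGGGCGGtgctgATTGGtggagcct
Sod2: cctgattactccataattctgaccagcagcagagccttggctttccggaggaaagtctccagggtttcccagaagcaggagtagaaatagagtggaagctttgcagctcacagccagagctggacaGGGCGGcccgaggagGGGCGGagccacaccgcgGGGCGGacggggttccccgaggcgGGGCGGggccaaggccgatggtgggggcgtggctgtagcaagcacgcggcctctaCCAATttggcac
These windows held 4 CCAAT boxes before Cat and 4 GC boxes before Sod2. Among 32851 promoters, 0.840% held at least as many CCAAT boxes as Cat in the same 250 bases and 4.09% held at least as many GC boxes as Sod2. The G and C content was 62.0% in the Cat window and 63.6% in the Sod2 window.

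The promoters of the members were also searched, on both strands, from 250 bases before to 50 after the start. A promoter was matched for 9 members, with Gsr the one without a match. The core of the antioxidant response element (TGACNNNGC), through which NRF2 acts, was present in 12.4% of all promoters and in 1 member, Sod1. In Sod1 it lies on the opposite strand, 56 bases before the start, and is shown in capitals in 30 bases at chr16:90220696-90220725, because Sod1 is the member with this element.
Sod1: gccaaggtggGCGTGGTCAgactcaggcct
The NRF1 core (GCATGCGC) was present in Gpx4 and in 2.71% of all promoters, and the GABP core (CCGGAAGT) in Prdx5 and in 3.89%. These shares are per promoter, whereas Gpx4 had 4 promoters in the search and each other matched member had 1. The NRF1 match of Gpx4, in chr10:80053395-80053424, lies inside the annotated span of the gene. Neither the estrogen-related receptor core (AAGGTCA, 4.72% of promoters) nor its extended form, which contains it (TCAAGGTCA, 0.423%), was present in these windows of the members. These are matches of letters and not measured binding sites.

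Fragments behind each member were estimated from the median length of its annotated transcripts. The lowest value came to about 66 fragments for Gsr, 72 for Txnrd2 and 569 or more for each other member. For Gsr and Txnrd2 that would be a counting error of 12.3% and 11.8%. Gsr varied less than that, at 9.12 ± 0.582 FPKM (SD, n = 12), and the lengths actually present were not known, so these numbers are rough. Nrip1 did not run in the direction of a deletion: it was at 2.53 to 4.76 FPKM in the 6 libraries labelled WT and at 14.9 to 20.7 FPKM in the 6 labelled strNrip1-/-. The floxed part is the last exon, which holds the whole coding sequence, whereas the value covers the gene, and from which exons its fragments came was not tested, so it does not check the deletion. Libraries are therefore described as labelled. Fast-fiber markers were abundant, with summed levels of 98720 FPKM or more for 10 genes. Transcripts of the mitochondrial genome made up 51.2% to 52.8% of the summed FPKM in the sedentary libraries labelled strNrip1-/- and 42.2% to 47.3% in the other 9. Rescaling each library to the same summed FPKM therefore shifted the median of all genes, by -0.14 (log2) in the sedentary genotype comparison and by 0.16 in the training comparison of libraries labelled strNrip1-/-.

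Under the deposited scaling, 245 genes were higher and 202 lower in sedentary libraries labelled strNrip1-/-, and the split became 121 and 531 with equal summed FPKM and 397 and 83 with equal summed FPKM of nuclear genes. In trained libraries the split was 409 higher and 353 lower as deposited, 549 and 130 with equal sums, and 466 and 148 with equal nuclear sums. Averaged over training it was 624 and 498, 429 and 524, and 827 and 240. Of the 10 members, 9 were above 0 in the averaged genotype comparison as deposited, against 7 with equal sums, 10 with equal nuclear sums and 8 after quantile normalization. Cat, Sod2, Gpx1, Prdx3, Prdx5, Txn2 and Txnrd2 kept their sign under all 3, while Sod1, Gpx4 and Gsr, all close to 0, did not.

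The members spanned a wide range of levels, compared here as mean FPKM over the 12 libraries, which is per length of transcript. Gpx4, the peroxidase of membrane lipid peroxides, came first at 344 ± 43.7 FPKM (SD, n = 12), followed by Sod1, the copper and zinc superoxide dismutase of the cytosol, at 316 ± 37.8 FPKM. The next members were mitochondrial: Sod2 at 203 ± 36.6, Prdx5 at 157 ± 24.4, Prdx3 at 148 ± 8.98 and Txn2 at 140 ± 18.7 FPKM. Gpx1, the general cytosolic glutathione peroxidase, stood at 59.8 ± 8.71 and Cat at 44.7 ± 12.9 FPKM. The 2 reductases were the least abundant, with Gsr (glutathione reductase) at 9.12 ± 0.582 and Txnrd2 (mitochondrial thioredoxin reductase) at 6.78 ± 1.02 FPKM. Both reductases lay below every enzyme that meets superoxide or peroxide in all 12 libraries.

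Neighbors in this order were not all separated. Sod1 was above Sod2, Txn2 above Gpx1 and Cat above Gsr with no overlap of their 12-library ranges. Sod2 exceeded Prdx5, and Gsr exceeded Txnrd2, in 12 of 12 libraries although their ranges overlapped. Gpx4 exceeded Sod1 in 10 libraries, Gpx1 exceeded Cat in 11 and Prdx3 exceeded Txn2 in 8. Prdx5 and Prdx3 could not be ordered, with Prdx5 higher in 6 of 12. The library in which Cat passed Gpx1 was strNrip1-/- trained replicate 2.

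**Figure D1:**
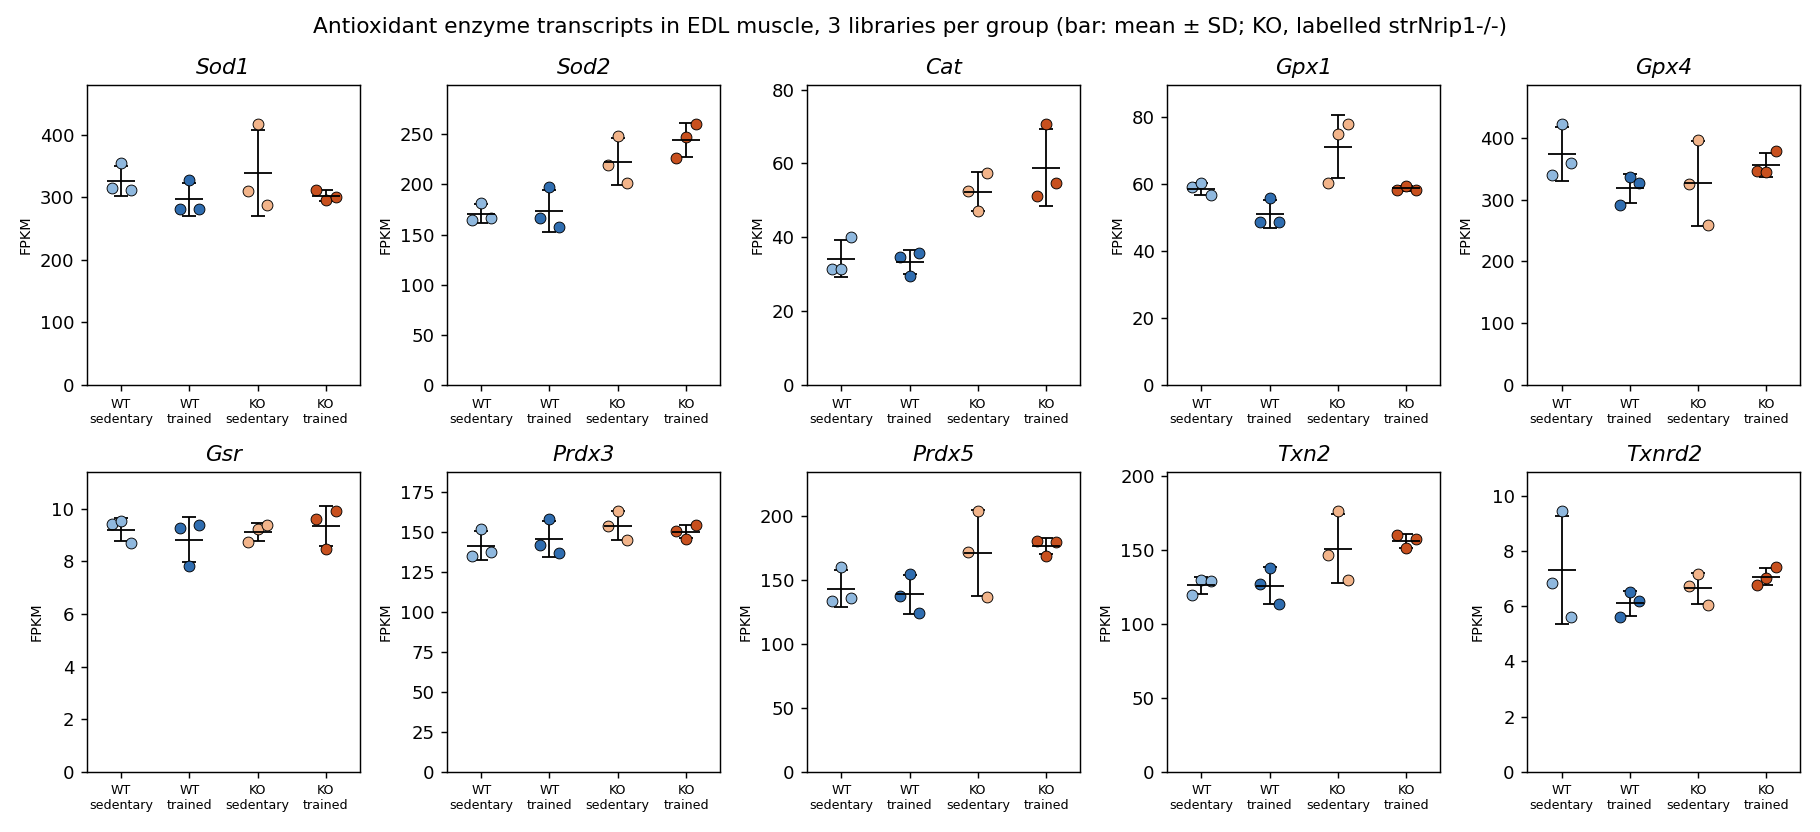
FPKM (linear axes from 0) of the 10 members in each library, by labelled genotype and training; points are libraries, the horizontal bar is the mean and the whiskers are 1 SD (n = 3), and KO stands for labelled strNrip1-/-. Cat and Sod2 are the panels in which the 6 KO libraries all lie above the 6 WT libraries, from 47.1 to 70.6 against 29.6 to 40.0 FPKM for Cat and from 201 to 260 against 157 to 197 FPKM for Sod2.

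Genotype was compared first in sedentary and in trained muscle, and then averaged over training. Cat was higher in libraries labelled strNrip1-/- in all 3 comparisons, Sod2 in trained muscle and in the average, and Txn2 in the average. Calls required both an adjusted p below 0.05 and a fold change above 1.2. Of the 10 members, 1 was called in sedentary muscle, against 3.51% of all tested genes (1.92% higher). In trained muscle 2 were called, against 5.98% (3.21% higher). Averaged over training 3 were called, against 8.80% (4.90% higher), and no member was called lower. The median log2 fold change of the members was 0.18 in sedentary muscle, 0.20 in trained muscle and 0.16 in the average, beside 0.00, 0.01 and 0.00 for all tested genes. The 6 libraries of 1 labelled genotype lay wholly on 1 side of the other 6 for 2 members, Cat and Sod2, and for 6.19% of all tested genes.

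Cat showed the largest difference among the members. Sedentary libraries labelled WT held 31.3, 31.4 and 40.0 FPKM, and trained ones 34.6, 29.6 and 35.7 FPKM. Sedentary libraries labelled strNrip1-/- held 52.5, 47.1 and 57.5 FPKM, and trained ones 51.1, 70.6 and 54.7 FPKM. All 6 labelled strNrip1-/- were above all 6 labelled WT. The group means were 34.2 ± 5.0 and 52.4 ± 5.22 FPKM in sedentary muscle and 33.3 ± 3.28 and 58.8 ± 10.4 FPKM in trained muscle (SD, n = 3 each). The log2 fold change was 0.61 (SE 0.139, limma adjusted p = 0.0370) in sedentary muscle, a fold of 1.53, and 0.80 (SE 0.139, adjusted p = 0.00740) in trained muscle, a fold of 1.74. Averaged over training it was 0.71 (SE 0.0982, 95% interval 0.49 to 0.92, adjusted p = 9.90e-04).

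The sedentary call of Cat was the less firm. It was lost without WT sedentary replicate 1 or 2, strNrip1-/- sedentary replicate 1 or 3, WT trained replicate 1 or 3, or strNrip1-/- trained replicate 3, where the adjusted p ran from 0.0503 to 0.146 and the log2 fold change from 0.54 to 0.61. With equal summed FPKM it was 0.46 (adjusted p = 0.174) and with equal nuclear sums 0.69 (adjusted p = 0.0599), and it held in 13 of 24 alternatives. The trained call held in 24 of 24 alternatives and the averaged call in 23 of 23. Adipocytes are also known to express Cat, and the 7 adipocyte markers summed to 171 to 249 FPKM in libraries labelled WT and to 220 to 352 FPKM in those labelled strNrip1-/-. None of the 6 adipocyte markers tested was called in any genotype comparison by limma, although all 6 were above 0 in each, and their median log2 difference was 1.14 sedentary, 0.19 trained and 0.64 averaged. The library with the most Cat, strNrip1-/- trained replicate 2, had the lowest adipocyte sum of its labelled genotype, 220 FPKM. Within strNrip1-/- sedentary muscle it was the reverse: replicate 3 had the most Cat and the highest adipocyte sum, 352 FPKM. Endothelial markers, 9 genes, summed to 102 to 122 and 120 to 138 FPKM in the labelled genotypes, and 2 of the 9, Tie1 and Cdh5, were called higher in the average. Of 7 blood markers 5 were tested, and all 5 were above 0 in each genotype comparison, with none called. Their median log2 difference was 0.09 sedentary, 0.43 trained and 0.26 averaged. The blood sums overlapped, at 723 to 1811 FPKM in libraries labelled WT and 808 to 1834 FPKM in those labelled strNrip1-/-. The part of these cell types in the Cat difference was not tested.

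Sod2 was next. Libraries labelled WT held 164, 182 and 166 FPKM when sedentary and 167, 197 and 157 FPKM when trained. The other genotype held 219, 248 and 201 FPKM when sedentary and 226, 247 and 260 FPKM when trained. The genotypes did not overlap, although the highest library labelled WT (197 FPKM) and the lowest labelled strNrip1-/- (201 FPKM) were close. The log2 fold change was 0.38 (SE 0.102, limma adjusted p = 0.0743) in sedentary muscle, 0.50 (SE 0.102, adjusted p = 0.0171) in trained muscle and 0.44 (SE 0.0721, 95% interval 0.28 to 0.60, adjusted p = 0.00291) in the average, a fold of 1.35. The averaged call held in 23 of 23 alternatives. The trained call was lost without WT trained replicate 1 or 3 or strNrip1-/- trained replicate 2 or 3, with adjusted p from 0.0651 to 0.0801. The longest match of a Sod2 transcript to Rps6ka2 was 3056 bases at 98.3%. The 8 annotated Sod2 transcripts have a median length of 724 nt, so this match does not describe Sod2 transcripts in general. Rps6ka2 was listed at a mean of 40.4 FPKM, and the Sod2 level is uncertain to the extent that reads were shared. Fast-fiber markers, 10 genes, summed to 128670 to 155310 FPKM in libraries labelled WT and to 98720 to 126050 FPKM in those labelled strNrip1-/-. In the average 5 of the 10 were called lower, among them Actn3 (-0.83) and Myh4 (-0.37), named after their values were seen. The list median was -0.30, and 1 of the 10 went the other way, at 0.30. Of 8 slow-fiber markers 2 were above 0, with a median of -0.25, a range from -0.76 to 1.54 and none called. The part of these fiber markers in the Cat and Sod2 differences was not tested.

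Txn2, the mitochondrial thioredoxin that keeps Prdx3 and Prdx5 reduced, was at 119, 129 and 129 FPKM in sedentary and 127, 137 and 113 FPKM in trained libraries labelled WT. The corresponding libraries labelled strNrip1-/- were at 146, 176 and 130 FPKM and at 160, 151 and 157 FPKM. The trained groups did not overlap, and the lowest sedentary library labelled strNrip1-/- was above the highest sedentary library labelled WT by under 1 FPKM. Trained groups were also apart between genotypes for Cat, Sod2, Gpx1, Gpx4, Prdx5 and Txnrd2. How many of all tested genes separate in groups of 3 libraries was not determined, so such gaps are description only. The averaged log2 fold change of Txn2 was 0.28 (SE 0.0751, limma adjusted p = 0.0339). This call was lost when any library other than strNrip1-/- sedentary replicate 3 or WT trained replicate 2 was left out, with adjusted p up to 0.0863 and a log2 fold change of 0.22 to 0.29. It held in 9 of 23 alternatives.

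Prdx5 and Gpx1 had similar estimates that did not meet both thresholds. Prdx5, a peroxiredoxin of mitochondria, peroxisomes and cytosol, was at 134, 160, 136, 137, 155 and 124 FPKM in libraries labelled WT, sedentary before trained. It was at 172, 204 and 137 FPKM in sedentary and 181, 169 and 180 FPKM in trained libraries labelled strNrip1-/-. The trained groups were apart, while strNrip1-/- sedentary replicate 3 fell within the range of the libraries labelled WT. The averaged log2 fold change was 0.30 (SE 0.0948, limma adjusted p = 0.0725). Without strNrip1-/- sedentary replicate 3 it was 0.37 (adjusted p = 0.0114), which passes. Prdx5 shares 409 exonic bases with Trmt112 on the opposite strand, which was listed at a mean of 31.5 FPKM, and the library kit does not mark strand.

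Gpx1 was at 58.9, 60.1 and 56.5 FPKM in sedentary and 48.6, 55.8 and 48.6 FPKM in trained libraries labelled WT. For the label strNrip1-/- the sedentary libraries held 60.2, 74.9 and 77.8 FPKM and the trained ones 58.1, 59.4 and 58.3 FPKM. The 2 highest values both came from sedentary libraries labelled strNrip1-/-. Its averaged genotype difference had an adjusted p of 0.0438 (limma) but a fold of 1.18, below the threshold (log2 fold change 0.23, SE 0.0663). Without strNrip1-/- sedentary replicate 1 the log2 fold change was 0.29 (adjusted p = 0.00718), and without WT trained replicate 2 it was 0.27 (adjusted p = 0.0272), and both pass.

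The other 5 members were not called in any genotype comparison. Prdx3, the peroxiredoxin of the mitochondrial matrix, ran from 135 to 158 FPKM in libraries labelled WT and from 145 to 163 FPKM in those labelled strNrip1-/-, with an averaged log2 fold change of 0.08 (95% interval -0.03 to 0.20). Sod1 ran from 281 to 354 and from 288 to 417 FPKM, with 0.03 (-0.16 to 0.22). Gsr ran from 7.82 to 9.52 and from 8.46 to 9.92 FPKM, with 0.03 (-0.11 to 0.18). These intervals leave room for changes of about the size estimated for Gpx1 in Sod1 and for smaller ones in Gsr and Prdx3. Gpx4 ran from 292 to 422 and from 259 to 396 FPKM, with -0.02 (-0.24 to 0.19). Txnrd2 ran from 5.59 to 9.45 and from 6.03 to 7.41 FPKM, with 0.05 (-0.18 to 0.28). Gpx4 has a near-identical copy, Gpx4-ps2 (99.7% over 760 bases), and Sod1 has Gm8566 (97.8% over 455 bases), so their levels are uncertain to the extent that reads were shared.

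**Figure D2:**
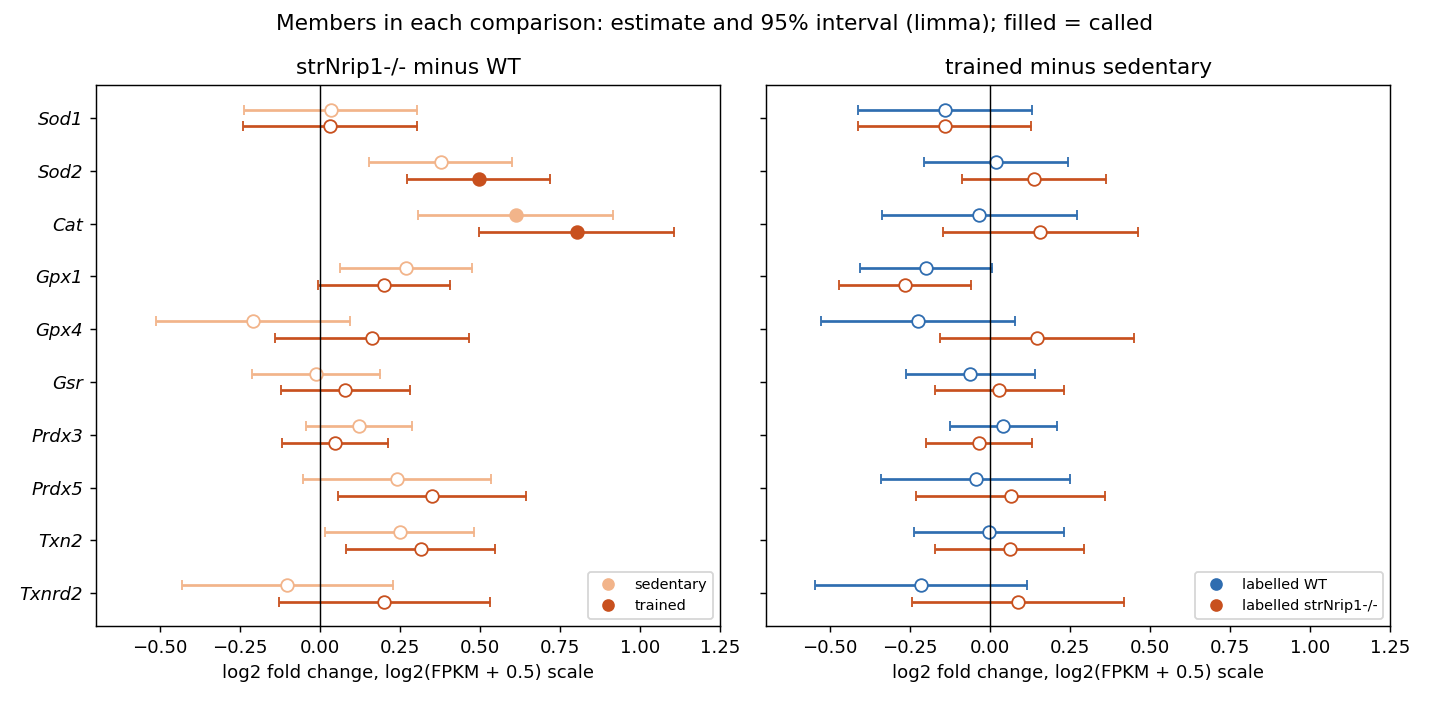
Log2 fold changes of the 10 members on the log2(FPKM + 0.5) scale, with 95% intervals from limma; the left panel gives libraries labelled strNrip1-/- minus labelled WT in sedentary and in trained muscle, the right panel trained minus sedentary within each labelled genotype. Filled points passed both thresholds: Cat at 0.61 and 0.80 and Sod2 at 0.50 in trained muscle, with none in the right panel.

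Training was compared within each labelled genotype. No member was called, and no gene of the whole table was called either, 0% of 12744 genes in each labelled genotype by limma, with 1061 genes in libraries labelled WT and 1544 in those labelled strNrip1-/- at an unadjusted p under 0.05. Among the members, 0 and 1 reached that unadjusted level, the latter being Gpx1. Averaged over genotype, 15 genes were called (0.118%), none of them a member. The averaged training differences of the members ran from -0.23 to 0.08, with a median of -0.01 beside 0.01 for all tested genes.

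Gpx1 had the largest training estimate among the members in the average and in libraries labelled strNrip1-/- (-0.27), while Gpx4 (-0.23) and Txnrd2 (-0.22) exceeded it (-0.20) in those labelled WT. It was at 58.5 ± 1.82 FPKM in sedentary and 51.0 ± 4.14 FPKM in trained libraries labelled WT, and at 71.0 ± 9.39 and 58.6 ± 0.689 FPKM in those labelled strNrip1-/- (SD, n = 3 each). All 3 trained libraries were below all 3 sedentary ones in each labelled genotype, and the share of all genes so separated was not determined. The averaged log2 fold change was -0.23 (SE 0.0663, unadjusted p = 0.00478, limma adjusted p = 0.177), which does not pass. The trained group labelled strNrip1-/- spanned only 58.1 to 59.4 FPKM.

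For Cat the training difference was -0.03 (95% interval -0.34 to 0.27) in libraries labelled WT and 0.16 (-0.15 to 0.46) in those labelled strNrip1-/-. For Sod2 it was 0.02 (-0.21 to 0.24) and 0.14 (-0.09 to 0.36). With equal summed FPKM, Sod2 passed in libraries labelled strNrip1-/-, at 0.31 (adjusted p = 0.0432), under the scaling that shifted the median of all genes by 0.16. Relative to that shift its value was close to the deposited one. Prdx3 had the narrowest intervals, -0.12 to 0.21 and -0.20 to 0.13. Training effects of the size of the Cat genotype difference thus lay outside the 95% intervals of all 10 members in both labelled genotypes.

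The genotype by training interaction asks whether the genotype difference changed with training. No member and no gene was called (0%, limma), with 989 genes and 0 members at an unadjusted p under 0.05. The largest member estimate was Gpx4 at 0.37 (95% interval -0.06 to 0.80, adjusted p = 0.670). Gpx4 was at 374 ± 43.2 FPKM in WT sedentary, 319 ± 23.6 in WT trained, 327 ± 68.7 in strNrip1-/- sedentary and 356 ± 19.6 FPKM in strNrip1-/- trained libraries. The sedentary groups overlapped and the trained groups did not. For Cat the estimate was 0.19 (-0.24 to 0.62) and for Sod2 0.12 (-0.20 to 0.44).

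**Figure D3:**
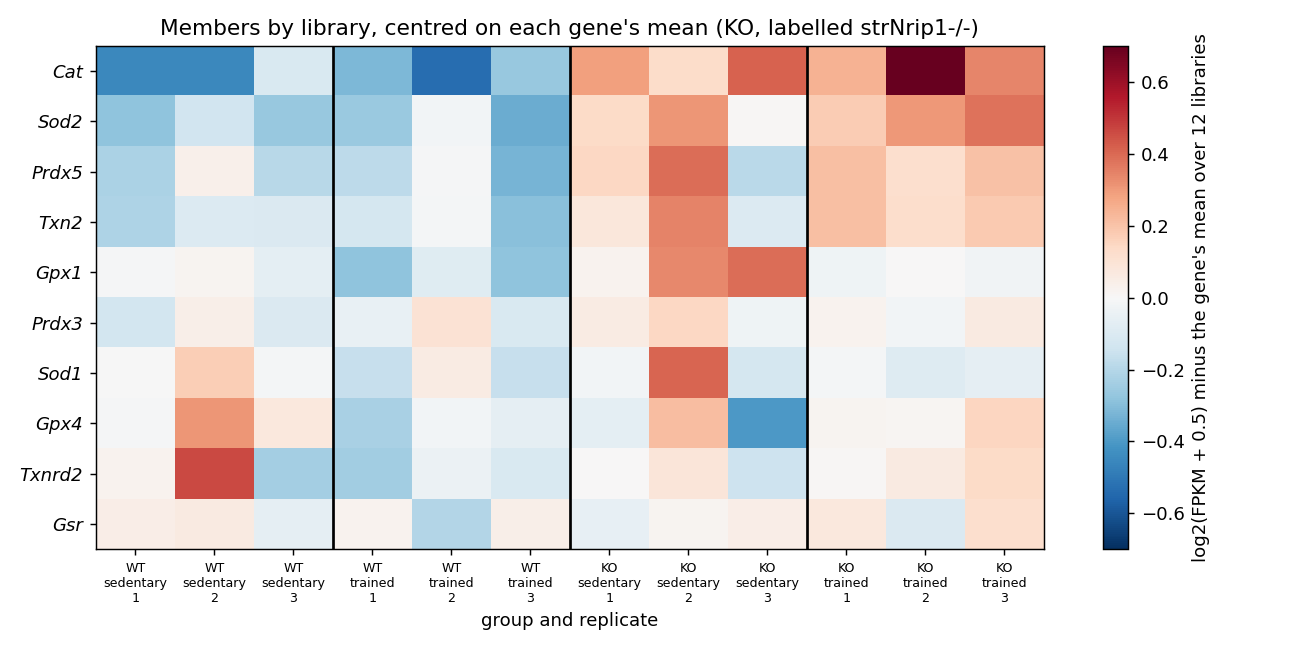
Level of each member in each library, as log2(FPKM + 0.5) minus that gene's mean over the 12 libraries (red higher, blue lower); columns are libraries by labelled group and replicate. Cat and Sod2 change color between the labelled genotypes, and strNrip1-/- sedentary replicate 2 is high for Sod1 (0.41), Prdx5 (0.39) and Txn2 (0.35) while replicate 3 is low for Gpx4 (-0.40).

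Replicates differed from each other in several members at once. Sod1, Sod2, Gpx4, Prdx3, Prdx5, Txn2 and Txnrd2 were each highest in replicate 2 in WT sedentary, WT trained and strNrip1-/- sedentary muscle. In strNrip1-/- trained muscle replicate 2 was highest for none of these 7. In strNrip1-/- sedentary muscle replicate 3 was lowest for all 7, while Cat went the other way, at 47.1 FPKM in replicate 2 and 57.5 FPKM in replicate 3. The SD of Sod1 in this group was 68.9 FPKM, against 8.33 to 26.8 FPKM in the other groups. Adipocyte markers summed to 352 FPKM in replicate 3 and 264 FPKM in replicate 2, and fast-fiber markers to 98720 and 126050 FPKM. Slow-fiber markers summed to 418 FPKM in WT sedentary replicate 2, against 128 and 154 FPKM in replicates 1 and 3. In WT trained muscle they summed to 722 FPKM in replicate 2, against 163 and 116 FPKM. In strNrip1-/- sedentary muscle replicate 1 was the highest, at 433 FPKM, with 220 FPKM in replicate 2 and 153 FPKM in replicate 3. The part of these markers in this spread was not tested.

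The genes whose pattern over the 12 libraries was most like that of each member were found by Pearson's r on log2(FPKM + 0.5) among 6848 other genes whose mean reached 5 FPKM. The 12 libraries share group differences and scaling, so r is given as a description. Genes near Cat included Slc25a42 (r = 0.97) and Agpat2 (0.96). Sod2 was nearest to Atp5b, Sdha and Coq9 (0.98 each). Prdx5 was nearest to Mdh2 (0.99), Atp5g1 and Uqcrq (0.98 each), and Txn2 to Ndufa8, Auh (0.98 each) and Cox4i1 (0.97). Prdx3 was nearest to Uqcrb and Prdx2 (0.95 each) and Ndufc2 (0.94). Genes near Sod1 included Rpl23 and Mrps21 (0.96 each), and the nearest to Gpx4 were Tmem134 (0.97), Adrm1 (0.96) and Syngr1 (0.95). Likeness was lower for Txnrd2, with Polr2i (0.91), Srp19 (0.86) and Tbcb (0.85), for Gpx1, with Dap (0.88), Ccnq (0.87) and Mgst1 (0.85), and for Gsr, with Pts (0.88), Ptprs (0.86) and 0610040J01Rik (0.82).

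Related genes were compared in the averaged genotype difference, where 8.80% of all genes were called. A yardstick of 36 nuclear genes of the citric acid cycle and respiratory chain was above 0 in 36 of 36, from 0.18 to 0.54 with a median of 0.35, and 23 were called higher. Its largest were Cox5a at 0.54, Atp5a1 at 0.51, Atp5b at 0.49 and Suclg2 at 0.48. Sod2 at 0.44 lay inside this range, as did Txn2 at 0.28, Prdx5 at 0.30 and Gpx1 at 0.23. Prdx3 (0.08) and Txnrd2 (0.05), both mitochondrial, lay below the lowest yardstick gene, and Cat (0.71) lay above the highest. These positions were not tested.

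Among 35 genes of peroxisome biogenesis and peroxisomal fatty acid oxidation, 5 were called higher and 0 lower, with a median of 0.06. They included Phyh (phytanoyl-CoA hydroxylase) at 0.40, Pex5 (the receptor that imports enzymes into peroxisomes) at 0.33, Hsd17b4, of peroxisomal fatty acid oxidation, at 0.31, and Pex6, named after its value was seen, at 0.26. Phyh went from 151 ± 13.2 to 199 ± 12.1 FPKM (SD, n = 6 each) without overlap. With equal summed FPKM the calls of Pex5 and Hsd17b4 were lost (limma adjusted p = 0.0536 and 0.0599).

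Of 25 other antioxidant genes, 3 were called higher and 2 lower (median 0.06). Those lower were Gpx3, the secreted glutathione peroxidase, from 182 ± 25.8 to 115 ± 20.5 FPKM (log2 fold change -0.66, SE 0.109, limma adjusted p = 0.00291), and Selenow, a small selenoprotein, at -0.53 (adjusted p = 0.0323). Those higher were Msrb2, the mitochondrial methionine sulfoxide reductase, at 0.50 (adjusted p = 0.00337), Msrb1, its selenoprotein relative of cytosol and nucleus, at 0.41 (adjusted p = 0.0466), and Prdx6, named after its value was seen, at 0.30. Gpx3 and Msrb2 were called in 23 of 23 alternatives. Selenow and Msrb1 were each called in 12 of 23, with adjusted p up to 0.0744 and 0.110. The cytosolic thioredoxin Txn1 (-0.04) and peroxiredoxin Prdx1 (0.03), named after their values were seen, were not called.

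Glutathione genes went both ways, with 5 higher and 2 lower among 23 tested of 24 (median 0.01). The largest rises were in Mgst1, a membrane-bound glutathione transferase, at 0.83 (22.5 ± 4.06 to 41.7 ± 14.6 FPKM, n = 6 each), Gstm7 at 0.77, Gstt2 at 0.53 and Gss, glutathione synthetase, at 0.44. Gss went from 7.75 ± 0.926 to 10.7 ± 1.49 FPKM and was called in 23 of 23 alternatives. The rate-limiting synthesis genes Gclc (-0.06) and Gclm (-0.16) were not called. The remaining called genes, named after their values were seen, were Mgst3, higher at 0.29, and Gstm1 and Gstm2, lower at -0.33 and -0.31. Several Gstm genes are close copies of each other, so reads may be shared among them.

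The NRF2 list, with NRF2 itself, its partners and genes it is known to induce, had 0 of 20 tested genes called higher and 1 lower (median -0.06). The gene called was Me1, the cytosolic malic enzyme, from 98.4 ± 9.74 to 69.3 ± 7.90 FPKM without overlap (-0.51, SE 0.0762, limma adjusted p = 0.00166). Nfe2l2, the NRF2 gene (-0.10), Keap1, its inhibitor (-0.02), and the classical targets Nqo1 (-0.14) and Hmox1 (0.19) were not called. Txnrd1 of the same list, named after its value was seen, was at 0.20 (limma adjusted p = 0.0208), below the fold threshold. In trained muscle, where 5.98% of all genes were called, Txnrd1 was called at 0.28 (limma adjusted p = 0.0358). It was the 1 gene of the list called higher there, and 2 were called lower.

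Supply of NADPH was described by 19 genes in 20 rows, of which 3 rose and Me1 fell (median 0.15). Idh2, the NADP-dependent isocitrate dehydrogenase of mitochondria, was at 160 ± 17.5 FPKM in libraries labelled WT and 252 ± 38.3 FPKM in those labelled strNrip1-/- without overlap (0.64, SE 0.0979, limma adjusted p = 0.00179). Me3, the mitochondrial malic enzyme, was at 0.28 and was called in 15 of 23 alternatives. Nnt, the transhydrogenase that makes mitochondrial NADPH, was at 0.69 (SE 0.143, adjusted p = 0.0104). Its levels were 6.71, 9.17 and 8.56 FPKM in sedentary and 5.43, 10.6 and 9.24 FPKM in trained libraries labelled WT. Under the label strNrip1-/- sedentary libraries held 9.33, 11.7 and 9.91 FPKM and trained ones 15.99, 17.6 and 18.4 FPKM. The difference was 1.05 (adjusted p = 0.0125) in trained and 0.33 (adjusted p = 0.489) in sedentary muscle, and the interaction was 0.72 with an adjusted p of 0.621, so these were not shown to differ.

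C57BL/6J mice are known to carry a partial deletion in Nnt and C57BL/6N mice are not. The floxed and the Cre lines here are given as C57BL/6J and C57BL/6JN, so the background may be mixed. The table has a second row named Nnt (ENSMUSG00000116207). It was listed at 0 in 9 libraries and at 3.38 FPKM in WT trained replicate 1, 3.62 in strNrip1-/- sedentary replicate 1 and 2.75 in strNrip1-/- sedentary replicate 3. Which Nnt allele each mouse carried, and its part in the Nnt difference, was not tested.

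Genes whose products make superoxide or peroxide, 16 tested of 20, had 0 called higher and 2 lower (median 0.03). Nos1, the neuronal nitric oxide synthase of fast fibers, went from 24.0 ± 3.71 to 14.99 ± 1.93 FPKM (-0.66, limma adjusted p = 0.00348), and Maoa, a monoamine oxidase of the outer mitochondrial membrane, from 2.51 ± 0.138 to 1.63 ± 0.117 FPKM (-0.50, adjusted p = 0.00110). Both were without overlap between the labelled genotypes. None of the 7 related lists had a gene called in the averaged training comparison.

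**Figure D4:**
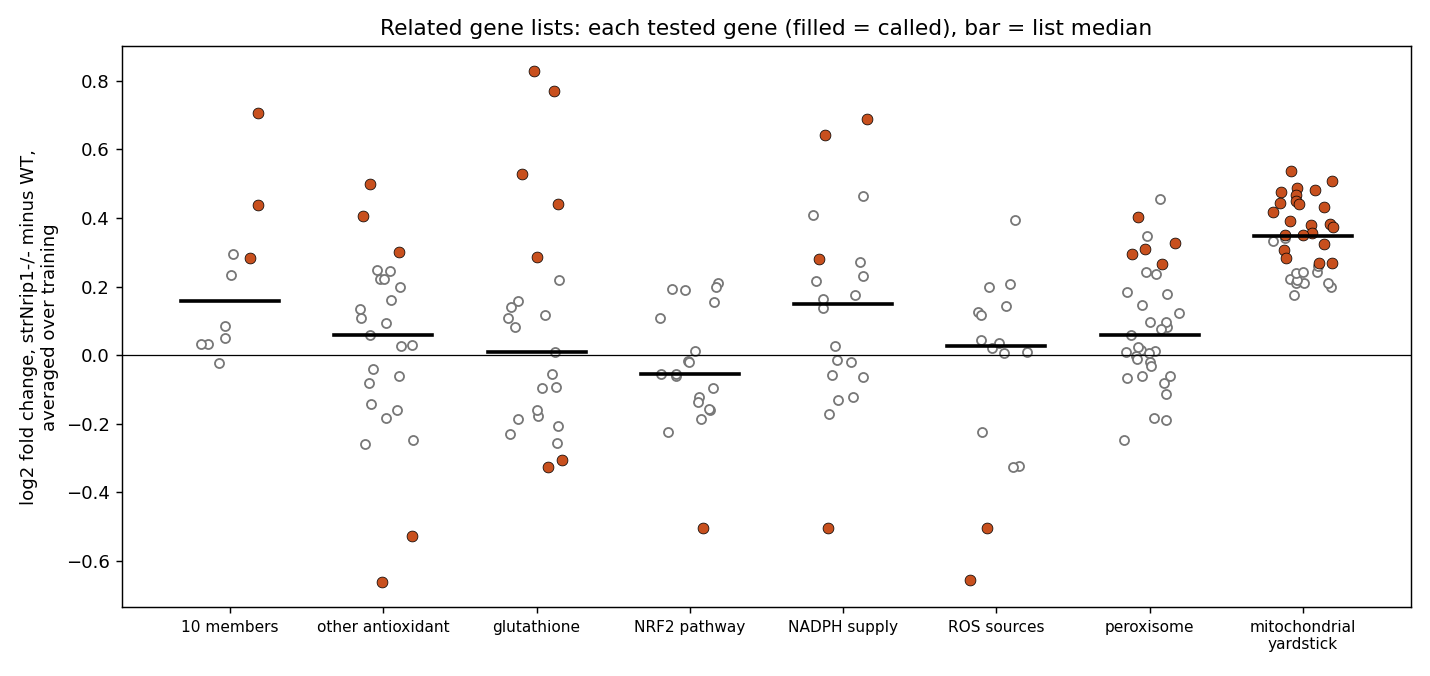
Averaged genotype differences (log2, libraries labelled strNrip1-/- minus labelled WT) of each tested gene in the members and 7 related lists; filled points were called and the black bar is the list median. The mitochondrial yardstick lies wholly above 0, from 0.18 to 0.54, while the medians of the glutathione, NRF2 and superoxide or peroxide source lists are 0.01, -0.06 and 0.03.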

How the data were processed

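RNA-seq of EDL muscle was analysed in 12 libraries, 3 in each of 4 groups taken from the sample labels. Reads were quantified by the authors with Salmon 1.10.2 on mm10 (GRCm38). They summed transcripts to genes with tximport and tested with DESeq2 1.44.0. The authors deposited FPKM, scaled between libraries. Log2 fold changes and adjusted p-values of their 4 comparisons were deposited beside them and were not used. How FPKM was computed is not given in the sources used here. No column belonged to a sample outside the series.

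From there, log2(FPKM + 0.5) was fitted for 12744 genes (mean FPKM 0.5 or more) to 4 group means with limma 3.58.1 in R 4.3.3 (lmFit, contrasts.fit, eBayes with trend), and p-values were two-sided and adjusted by Benjamini and Hochberg over all tested genes of a contrast. A gene was called at an adjusted p under 0.05 and a fold over 1.2, the study's thresholds; the interaction used the adjusted p alone. Fold changes on this scale understate low genes. Averaged contrasts weigh both levels of the other factor equally. The scripts were tested on simulated data. Nothing says which animals were pooled or shared, so the p-values measure the spread between these libraries.

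Depth, 20 M to 28.9 M fragments (M, mega), was inferred from low FPKM values of 1613 single-transcript genes longer than 1500 nt. In each library the depth, and a length subtracted from each transcript, were chosen to make the most values whole fragments to within 0.15. This share was 99.0% to 100.0%. At a fixed setting 30% would be by chance, and after such a choice chance would give more. Member fragments used the median annotated transcript length less the subtracted length. Fragment errors cover counting error only. The inferred depth may be a scaling denominator rather than a read total. Coordinates and overlaps came from GENCODE M21 on GRCm38, promoters from RefSeq GRCm38.p6. The members and lists were chosen with earlier results of these data known. Named genes were the members, Nrip1, Nnt, up to 4 called genes of each related list with the largest averaged difference, and for each member the 3 genes with the highest r; some of these are not reported here. Alternatives were pseudocounts of 0.1 and 1, no filter and a mean of at least 5 FPKM, 3 rescalings, eBayes without trend, the compared groups alone, a replicate block, removal of GC content and length trends, and each library left out.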

Additional observations from a re-analysis of the deposited data

How the results depend on the processing

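The numbers of called genes moved with the processing. With only the compared groups in the fit, 177 genes were called in sedentary and 443 in trained muscle between genotypes, against 447 and 762. Leaving out 1 library gave 164 to 482 and 315 to 874. Training calls in libraries labelled WT were 0, but 8 with a mean of at least 5 FPKM, 4 after quantile normalization, 2 with equal nuclear sums, 1 with equal sums, and 0 to 30 with 1 library left out, the highest without WT trained replicate 1. In libraries labelled strNrip1-/- they were 0, but 150 with equal sums, 5 with a mean of at least 5 FPKM, 3 with equal nuclear sums and 0 to 4 with 1 library left out. The interaction gave 0 to 1. Averaged training calls were 15, but 26 with equal sums, 28 after quantile normalization and 1 to 189 with 1 library left out, the highest again without WT trained replicate 1.

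Of the members, 1 was called in sedentary muscle between genotypes, but 0 with equal sums, without the variance trend or with only the compared groups, 2 after quantile normalization or removal of GC content and length trends, 3 with equal nuclear sums (Sod2, Prdx5 and Txn2, with Cat lost), and 0 to 2 with 1 library left out. In trained muscle 2 were called, but 4 under each of the 3 rescalings and 1 to 3 with 1 library left out. In the average 3 were called, but 5 with equal nuclear sums, 2 with equal sums, without the variance trend or after removal of GC content and length trends (Txn2 lost), and 2 to 4 with 1 library left out. Sod2 was the 1 member called for training in libraries labelled strNrip1-/-, with equal sums.

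Same-numbered libraries did not deviate together throughout: over 18 pairs the correlation of their deviations ran from -0.10 to 0.24, and 5 exceeded 0.1. Replicate 2 of WT sedentary, WT trained and strNrip1-/- sedentary muscle did so most, at 0.16 to 0.24. With the number as a replicate block, training calls in libraries labelled WT became 4, the members called in sedentary muscle 2 (Sod2 joined, adjusted p = 0.0393) and Prdx5 passed in the average (adjusted p = 0.0372). With the block and the GC content and length correction together these were 1 and 2, and the averaged training calls 6. Averaged and interaction contrasts use all 12 libraries, so the fit of the compared groups alone could not be made for them.

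Some differences near 0 changed sign. With equal sums, Sod1 was at -0.12 in sedentary muscle and -0.0135 in the average, Prdx3 at -0.0347 in sedentary muscle, Gsr at -0.0107 in the genotype average, and the averaged training difference was 0.0263 for Gpx4 and 0.0459 for Gsr. With equal nuclear sums Gpx4 was at 0.036 in the genotype average, Gsr at 0.0645 in sedentary muscle and Prdx3 at -0.0035 for training. Quantile normalization put Sod1 at -0.0361, -0.07 and -0.0531 in sedentary, trained and averaged genotype differences and Prdx5 at -0.0035 for training. Removing GC content and length trends put Gsr at 0.0256 for training, with or without the block. With 1 library left out, genotype differences spanned 0 for Sod1 (-0.13 to 0.14 sedentary, -0.0049 to 0.11 trained, -0.0471 to 0.0859 averaged), Gsr (-0.0509 to 0.0176 sedentary, -0.006 to 0.0659 averaged), Txnrd2 (-0.26 to 0.0873 sedentary, -0.0315 to 0.14 averaged) and Gpx4 (-0.0977 to 0.0557 averaged). Averaged training differences did so for Cat (-0.0079 to 0.12), Gpx4 (-0.12 to 0.035), Gsr (-0.0386 to 0.0225), Prdx3 (-0.0262 to 0.0302), Prdx5 (-0.0668 to 0.0775), Txn2 (-0.023 to 0.0873) and Txnrd2 (-0.14 to 0.0305). The cause of these changes was not tested. By the rough fragment estimate, Gsr and Txnrd2 had the fewest fragments, with a counting error of 12.3% and 11.8% in their lowest library. Gsr varied less than that between libraries, so how far depth limits it is not known.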

Other observations

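All 5 blood markers tested of 7 were below 0 in the averaged training comparison, with a median of -0.47, and none was called by limma. Their sum ran from 723 to 863 FPKM in WT trained libraries and from 753 to 1811 FPKM in WT sedentary libraries. In libraries labelled strNrip1-/- it ran from 808 to 1445 FPKM when trained and from 851 to 1834 FPKM when sedentary, and the ranges overlapped in both labelled genotypes. Adipocyte markers were above 0 for training in 6 of 6 in libraries labelled WT (median 0.69) and in 2 of 6 in those labelled strNrip1-/- (median -0.19), with none called by limma. Prdx2, the peroxiredoxin that is abundant in red cells, had a mean of 83.2 FPKM and an averaged genotype difference of 0.16 (adjusted p = 0.273).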
